A study of Homo sapiens with 8 samples.

Results

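The MHC class I molecule and the machinery that loads it with peptide were followed here in the human melanoma cell line A375, through all array probes annotated to HLA-B, HLA-C, HLA-E, HLA-F, B2M, TAP1, TAP2, TAPBP or NLRC5. The 9 genes have 15 probes and are 9 of 20046 genes that carry a probe with 1 gene symbol. CD10-A375 cells were A375 cells stably transfected with an expression plasmid that held the open reading frame of CD10, a cell-surface peptidase encoded by MME, selected with G418 and sorted for CD10 on their surface. Mock-A375 cells were A375 cells carrying the empty vector, and no text read here says whether they too were sorted. Each group had 4 Illumina HumanHT-12 bead arrays, labelled as biological replicates and hybridized with biotinylated cRNA copied from total RNA. Only 1 transfected population is described for either group. The p-values therefore speak of the spread among these samples, and not of that among separate transfections.

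Class I molecules display peptides from inside the cell to CD8 T cells, and they are made by nearly every nucleated cell. A heavy chain, encoded by an HLA gene, pairs with the light chain beta-2-microglobulin (B2M). Peptides cut by the proteasome are pumped into the endoplasmic reticulum by the transporter TAP1-TAP2, and tapasin (TAPBP) holds the empty heavy chain next to that transporter. NLRC5 is a transactivator that acts on the promoters of these genes through a shared array of elements, the SXY module. Reduced expression of this pathway is a well known trait of many tumors, melanoma included.

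The heavy chain genes HLA-B, HLA-C and HLA-F were expressed above mock-A375 in CD10-A375, by 2.51-fold, 1.94-fold and 1.74-fold, whereas no probe of the transporter or tapasin genes was called higher. One TAP2 probe was lower, at 0.562 of its mock-A375 signal, and the TAP1 probe was lower by a small margin. B2M was higher by 1.18-fold at its brighter probe, and its other probe was not called. HLA-E was higher by 1.14-fold, but its groups overlapped. That call was kept in only 4 of 18 alternative settings of processing, testing or arrays left out. Of the 15 probes, 12 were detected on at least 1 array (detection p of 0.01 or less) and tested with limma. At an adjusted p under 0.05, CD10-A375 had the higher signal for 6 of the 12 (50%) and the lower for 2 (16.7%). Among all 19550 tested probes 17.3% were higher, 19.3% were lower and 36.6% were called in either direction. CD10-A375 and mock-A375 arrays were fully separated for 7 of the 12 probes (58.3%), against 34.6% of all tested probes. The median log2 fold change of the 12 probes was 0.213 and that of all tested probes -0.0216.

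**Figure D1:**
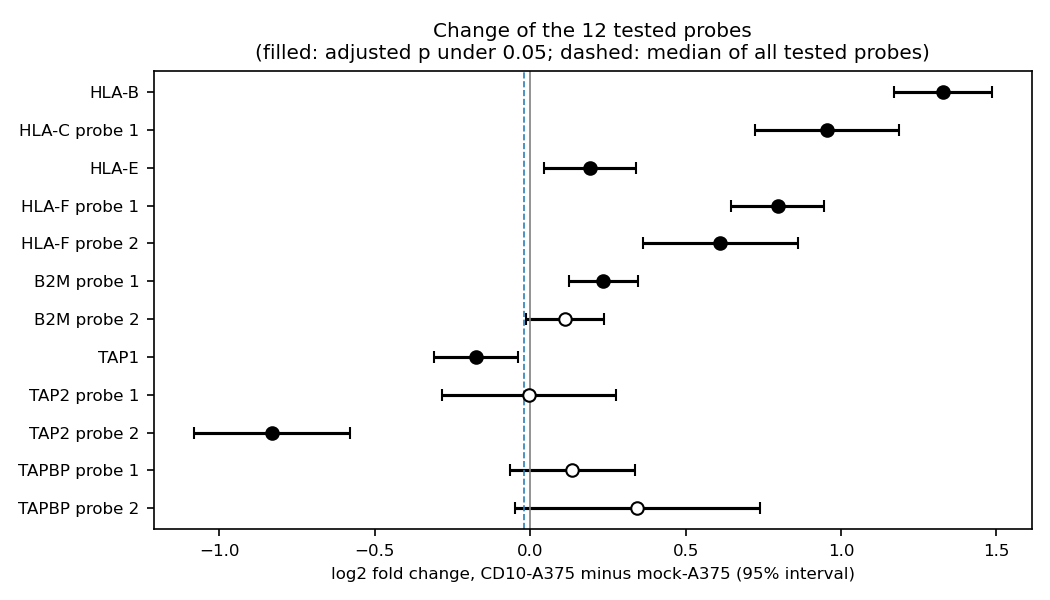
The horizontal axis gives the log2 fold change of CD10-A375 over mock-A375 with its 95% interval for the 12 tested probes, named on the vertical axis (n = 4 arrays per group). Points of HLA-B, HLA-C and HLA-F lie to the right of 0, from 0.61 to 1.33, and TAP2 probe 2 lies at -0.83. Filled points passed the test, and the dashed line is the median of all tested probes, -0.0216.

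The starts of these genes carry recognizable regulatory elements, shown here because class I promoters are known for a common set of them. Promoter sequence from RefSeq (GRCh38.p14) was matched for 7 of the 9 genes by symbol. The 200 bases before the annotated start lie at chr6:31357180-31357379 on the minus strand for HLA-B, chr6:31272093-31272292 on the minus strand for HLA-C and chr6:29723234-29723433 on the plus strand for HLA-F. They lie at chr15:44711317-44711516 on the plus strand for B2M, chr6:32853705-32853904 on the minus strand for TAP1, chr6:32838740-32838939 on the minus strand for TAP2 and chr6:33314079-33314278 on the minus strand for TAPBP. They are printed 5′ to 3′ on the strand of the gene, and for TAP1, which has a second annotated start, the upstream start is used. Capitals mark every match, on either strand, to the letters CTGATTGG, an inverted CCAAT, or to the TGACGC core of the X2 box. They also mark every match, on either strand, to the NF-kB palindrome GGGATTCCC or the interferon element core TTTCNNTTT.
HLA-B: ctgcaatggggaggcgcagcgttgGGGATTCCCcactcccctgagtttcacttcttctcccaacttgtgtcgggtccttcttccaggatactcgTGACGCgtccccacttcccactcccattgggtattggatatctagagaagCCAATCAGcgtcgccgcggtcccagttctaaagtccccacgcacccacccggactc
HLA-C: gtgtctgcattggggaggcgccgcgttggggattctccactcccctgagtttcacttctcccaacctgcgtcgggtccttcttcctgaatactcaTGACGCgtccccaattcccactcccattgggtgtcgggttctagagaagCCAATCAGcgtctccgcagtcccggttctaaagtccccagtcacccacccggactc
HLA-F: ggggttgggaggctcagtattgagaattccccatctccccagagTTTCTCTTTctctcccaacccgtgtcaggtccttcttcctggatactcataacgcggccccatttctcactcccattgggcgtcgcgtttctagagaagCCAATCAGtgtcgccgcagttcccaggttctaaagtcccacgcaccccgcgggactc
B2M: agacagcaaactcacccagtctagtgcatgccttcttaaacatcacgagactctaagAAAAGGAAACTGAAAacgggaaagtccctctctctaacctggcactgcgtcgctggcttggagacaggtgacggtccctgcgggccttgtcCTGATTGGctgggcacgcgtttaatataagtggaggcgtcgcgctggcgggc
TAP1: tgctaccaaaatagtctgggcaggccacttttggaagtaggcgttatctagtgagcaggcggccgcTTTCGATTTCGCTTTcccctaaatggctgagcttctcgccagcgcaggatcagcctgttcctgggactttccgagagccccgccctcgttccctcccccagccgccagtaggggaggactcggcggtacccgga
TAP2: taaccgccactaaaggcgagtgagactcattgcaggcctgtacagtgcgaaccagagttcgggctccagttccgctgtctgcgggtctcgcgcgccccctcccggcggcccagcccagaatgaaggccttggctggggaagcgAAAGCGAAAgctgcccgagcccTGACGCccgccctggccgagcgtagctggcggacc
TAPBP: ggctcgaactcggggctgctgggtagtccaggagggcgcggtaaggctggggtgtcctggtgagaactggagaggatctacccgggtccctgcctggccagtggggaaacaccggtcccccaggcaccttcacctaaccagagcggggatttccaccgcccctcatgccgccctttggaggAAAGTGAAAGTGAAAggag

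The letters CTGATTGG stood on the strand of the gene in B2M, 52 bases before the start at their far end. In HLA-B, HLA-C and HLA-F they stood on the opposite strand, so that the printed strand reads CCAATCAG. Their far ends lay 56, 56 and 57 bases before the start. On either strand they were present in 3.55% of all 35116 promoter windows of the same length. Whether any of these matches is the Y box of the SXY module was not tested. The X2 core TGACGC was present in HLA-B, HLA-C and TAP2 and in 6.67% of all windows. The palindrome GGGATTCCC, a binding sequence of NF-kB, was present in HLA-B alone among the 7, and in 99 of all windows (0.282%). The interferon element core TTTCNNTTT was present in HLA-F, B2M, TAP1, TAP2 and TAPBP and in 7.09% of all windows, and its matches overlap each other in B2M, TAP1 and TAPBP. Over the aligned windows HLA-B was identical to HLA-C in 87.7% of columns and to HLA-F in 80.8%, and to the other 4 genes in 48.0% to 51.3%. These are exact matches of letters in the reference genome, and near matches were not searched. A window without a match may therefore still hold an element of that kind with other letters. The HLA genes are highly polymorphic, and the alleles of A375 were not read here.

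All 8 arrays were of one kind. Between 15930 and 16937 probes were detected on each, and correlations over the tested probes were 0.991 to 0.993 within a group and 0.962 to 0.967 between groups. None of the 4 MME probes was detected on any array (lowest detection p 0.114), and where in the transcript they lie is not stated in the texts read here, so MME does not check the labels. The headers name the CD10-A375 arrays by the letters E to H and the mock-A375 arrays by I to L, so whatever the letters stand for cannot be told apart from the group. Of 7 measured melanocyte markers, MITF, SOX10 and EDNRB were detected on all 8 arrays, and PMEL, MLANA, TYR and S100B on none. The summed linear signal of the melanocyte list ran from 6560 to 7241 in CD10-A375 and from 4526 to 5161 in mock-A375, with no overlap, and its part in the class I results was not tested. Of 7 measured leukocyte markers, PTPRC, CD3E, MS4A1 and NKG7 were detected on no array, and CD14, LYZ and CD68 on all 8. That of the leukocyte list ran from 910 to 1072 in CD10-A375 and from 663 to 758 in mock-A375. LYZ, the lysozyme gene, rose within that list, with a log2 fold change of 1.67 (limma adjusted p = 1.52e-10). Of 6 fibroblast markers 4, and of 3 endothelial markers all 3, were detected on no array. The summed fibroblast signal ran from 177 to 196 in CD10-A375 and from 218 to 267 in mock-A375, and the endothelial signal from 96.7 to 108 and from 74.0 to 77.6. The part of these lists was not tested either.

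HLA-B encodes one of the classical heavy chains, and its single probe (ILMN_1778401) had the largest change of the 12. On the log2 scale used here, background corrected and quantile normalized with an offset of 16, its signal was 11.82, 11.86, 11.69 and 11.74 on the CD10-A375 arrays 1 to 4. On the mock-A375 arrays 1 to 4 it was 10.30, 10.38, 10.45 and 10.67. Every CD10-A375 array was thus more than 1 log2 unit above every mock-A375 array. The group means were 11.78 ± 0.07 (SD, n = 4) and 10.45 ± 0.16 (SD, n = 4). The log2 fold change was 1.33 with an SE of 0.08 (limma adjusted p = 9.7e-11), a 2.51-fold difference with a 95% interval of 2.25 to 2.80. Of all tested probes, 98.3% had a lower log2 fold change. The deposited intensities before normalization ran from 1265 to 4170 over the 8 arrays, and the detection p was 0 on each. On this scale no other of the 12 probes passed 2-fold, the size that the study's methods ask for, but HLA-C probe 1 also passed it on the average-normalized values, with a log2 fold change of 1.02, and without CD10-A375 replicate 3 (1.02) or 4 (1.01).

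HLA-C, the other classical heavy chain gene measured, has a pair of probes that behaved unlike each other. Probe 1 (ILMN_1721113) had log2 signals of 8.18, 8.14, 7.79 and 7.81 on the CD10-A375 arrays and of 7.05, 7.08, 7.10 and 6.86 on the mock-A375 arrays. The groups did not overlap, and CD10-A375 arrays 1 and 2 stood above arrays 3 and 4. Its log2 fold change was 0.95 with an SE of 0.11 (limma adjusted p = 1.71e-06), or 1.94-fold with a 95% interval of 1.65 to 2.28. Probe 2 (ILMN_2150787) was detected on no array, with detection p-values of 0.905 to 1 and intensities of -28.1 to -15.7, so it was not tested and gives no level. Heavy chain genes are close copies of each other and differ between alleles. The probe sequences were not read here, so signal at one HLA probe may come in part from another HLA gene.

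**Figure D2:**
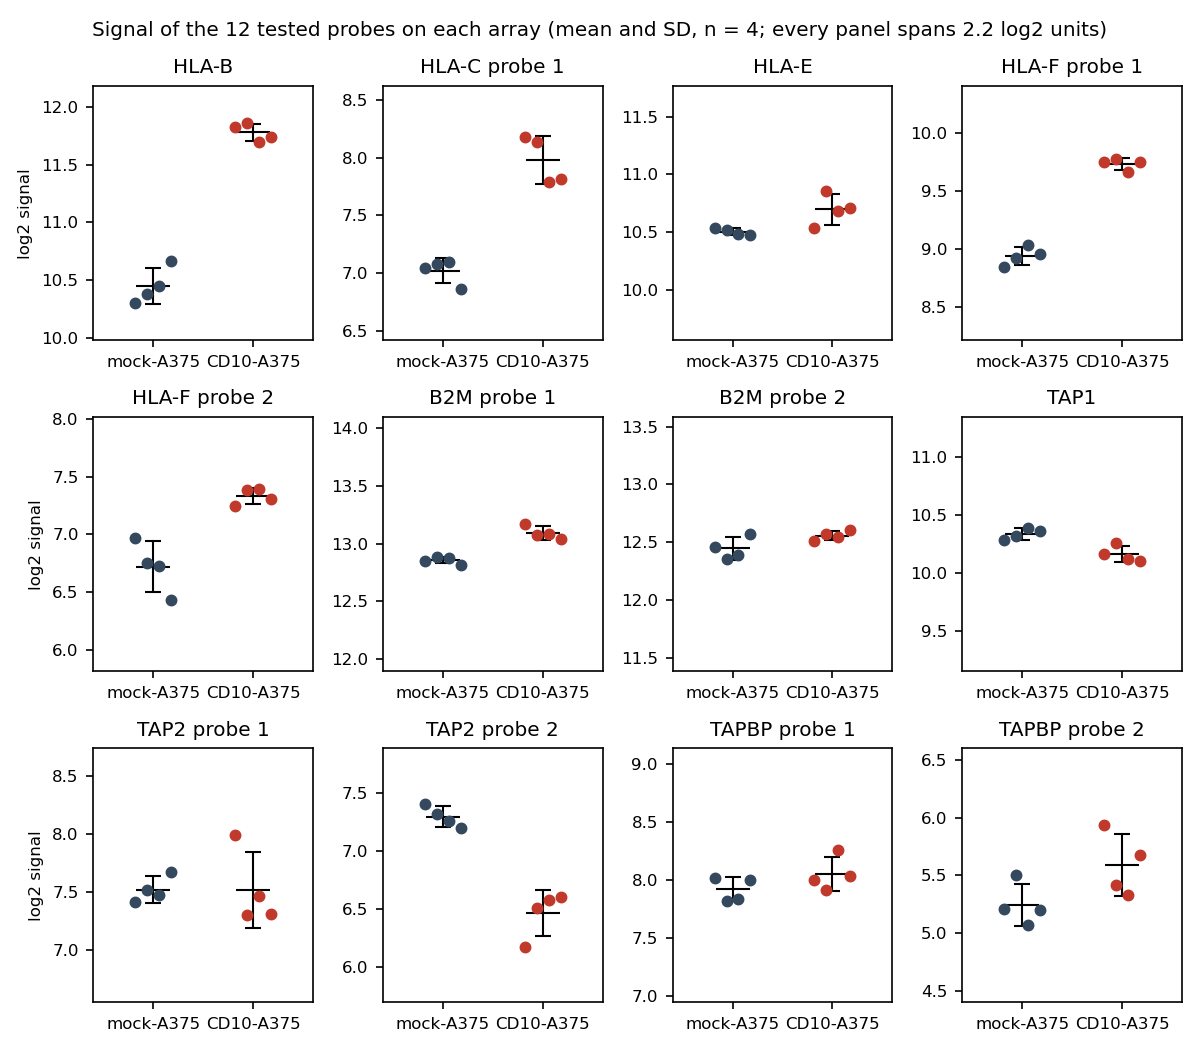
Each panel gives 1 of the 12 tested probes, with the log2 signal on the vertical axis, 1 point per array and the mean with its SD (n = 4), mock-A375 on the left and CD10-A375 on the right. All panels span the same range of log2 units. For HLA-B the CD10-A375 arrays lie between 11.69 and 11.86 and the mock-A375 arrays between 10.30 and 10.67, and for TAP2 probe 2 the order is turned.

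HLA-E and HLA-F encode nonclassical heavy chains. HLA-E presents leader peptides of other class I chains to receptors of natural killer cells, and HLA-F is mostly found inside cells and binds receptors of natural killer cells as well. HLA-F probe 1 (ILMN_2186806) had log2 signals of 9.75, 9.77, 9.66 and 9.75 on the CD10-A375 arrays and of 8.84, 8.92, 9.04 and 8.95 on the mock-A375 arrays. The groups were far apart and tight, and the log2 fold change was 0.80 with an SE of 0.07 (limma adjusted p = 6.28e-08), or 1.74-fold with a 95% interval of 1.56 to 1.93. HLA-F probe 2 (ILMN_1762861) had 7.25, 7.39, 7.39 and 7.31 on the CD10-A375 arrays and 6.97, 6.75, 6.73 and 6.44 on the mock-A375 arrays. These groups did not overlap either, and the log2 fold change was 0.61 with an SE of 0.12 (limma adjusted p = 4.57e-04). The changes of the HLA-F probes differed by 0.18 (exact permutation test, two-sided, p = 0.286).

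HLA-E (ILMN_1765258) had log2 signals of 10.53, 10.86, 10.69 and 10.71 on the CD10-A375 arrays and of 10.54, 10.52, 10.49 and 10.47 on the mock-A375 arrays. The mock-A375 arrays were nearly level, and CD10-A375 array 1 lay within their range, so the groups overlapped. The log2 fold change was 0.19 with an SE of 0.07 (limma adjusted p = 0.0400), or 1.14-fold with a 95% interval of 1.03 to 1.26. HLA-E passed the test without CD10-A375 replicate 1 but not without any one of the other 7 arrays (limma adjusted p = 0.0536 to 0.151). It also failed the test with no normalization (limma adjusted p = 0.411) and with average normalization (0.139). With SAM, the kind of test that the methods name but run on the values used here, the adjusted p of HLA-E was 0.378.

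B2M, which encodes the light chain shared by all these heavy chains, has a bright pair of probes. Probe 1 (ILMN_1725427) had log2 signals of 13.17, 13.07, 13.09 and 13.04 on the CD10-A375 arrays and of 12.85, 12.88, 12.88 and 12.82 on the mock-A375 arrays. These groups did not overlap, at a distance that was small beside that of HLA-B, and the log2 fold change was 0.23 with an SE of 0.05 (limma adjusted p = 0.00183), or 1.18-fold with a 95% interval of 1.09 to 1.27. It failed the test with no normalization (limma adjusted p = 0.0826) and with SAM (adjusted p = 0.276). Probe 2 (ILMN_2148459) had 12.51, 12.57, 12.55 and 12.61 on the CD10-A375 arrays and 12.46, 12.36, 12.39 and 12.57 on the mock-A375 arrays. The groups overlapped there, with mock-A375 array 4 inside the CD10-A375 range. Its log2 fold change was 0.11 with a 95% interval of -0.01 to 0.24 (limma adjusted p = 0.154).

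TAP1 and TAP2 encode the partner chains of the peptide transporter. The TAP1 probe (ILMN_1751079) had log2 signals of 10.17, 10.26, 10.12 and 10.11 on the CD10-A375 arrays and of 10.28, 10.32, 10.39 and 10.36 on the mock-A375 arrays. The groups did not overlap, but CD10-A375 array 2 and mock-A375 array 1 were nearly equal. The log2 fold change was -0.17 with an SE of 0.06 (limma adjusted p = 0.0430), or 0.887 of the mock-A375 signal with a 95% interval of 0.807 to 0.974. The call of TAP1 was lost without CD10-A375 replicate 1, 3 or 4 or mock-A375 replicate 2, 3 or 4 (limma adjusted p = 0.0652 to 0.109), and its direction stayed negative in each. It failed the test too with no normalization (limma adjusted p = 0.0958), with no detection filter (0.0949) and with SAM (0.397).

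The TAP2 probes are annotated to different transcripts of the gene. Probe 2 (ILMN_1777565) had log2 signals of 6.17, 6.50, 6.58 and 6.60 on the CD10-A375 arrays and of 7.41, 7.32, 7.26 and 7.20 on the mock-A375 arrays. Every CD10-A375 array was below every mock-A375 array, and the lowest was replicate 1. The log2 fold change was -0.83 with an SE of 0.12 (limma adjusted p = 2.07e-05), or 0.562 of the mock-A375 signal with a 95% interval of 0.472 to 0.668, and 2.98% of all tested probes had a lower log2 fold change. Probe 1 (ILMN_1759250) had 7.99, 7.30, 7.46 and 7.31 on the CD10-A375 arrays and 7.41, 7.52, 7.47 and 7.68 on the mock-A375 arrays. The groups overlapped, and CD10-A375 replicate 1 was the highest of all 8 arrays at this probe and the lowest of all 8 at the other. The log2 fold change of probe 1 was -0.0046 with a 95% interval of -0.29 to 0.28 (limma adjusted p = 0.983), and without CD10-A375 replicate 1 it was -0.16 (limma adjusted p = 0.265). The changes of the TAP2 probes differed by 0.83 (exact permutation test, two-sided, p = 0.0286, the smallest that 4 arrays against 4 can give). The adjusted p was 0.114 over the 4 pairs of probes of the same gene. With only 1 of the 4 pairs at that smallest p and the others well above it, the adjusted p could not be lower. It therefore does not settle whether the TAP2 probes differ.

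TAPBP encodes tapasin. Its probe 1 (ILMN_1742450) had log2 signals of 8.00, 7.92, 8.26 and 8.04 on the CD10-A375 arrays and of 8.02, 7.82, 7.84 and 8.00 on the mock-A375 arrays. The groups overlapped, and the log2 fold change was 0.14 with a 95% interval of -0.07 to 0.34 (limma adjusted p = 0.290). Probe 2 (ILMN_1773031) was detected on CD10-A375 array 1 alone, with signals of 5.33 to 5.93 in CD10-A375 and 5.07 to 5.50 in mock-A375, and a log2 fold change of 0.34 (limma adjusted p = 0.165). Probe 3 (ILMN_1782851) was detected on no array, with a lowest detection p of 0.0299. NLRC5, the transactivator, has 1 probe (ILMN_1716704), which was detected on no array. Its detection p-values ran from 0.142 to 0.73 and its intensities from -8.67 to 13.2, so its level was not measurable in either group.

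To compare the sizes of these changes, every pair of the 8 tested genes was compared at the brightest probe of each, by an exact permutation test of the difference between their log2 signals within an array (two-sided, 28 pairs). In 18 pairs p was 0.0286, the smallest that 4 arrays against 4 can give, and the adjusted p of these 18 was 0.0445. HLA-B, HLA-C and HLA-F each rose more than HLA-E, B2M, TAP1, TAP2 probe 1 and TAPBP probe 1. The change of HLA-B exceeded that of HLA-E by 1.14 on the log2 scale, that of B2M by 1.09 and that of TAPBP by 1.19. The change of HLA-B also exceeded that of HLA-F by 0.53. The changes of HLA-B and HLA-C differed by 0.37 (exact permutation p = 0.0857, adjusted 0.120), and those of HLA-C and HLA-F by 0.16 (exact permutation p = 0.257, adjusted 0.327). HLA-E and B2M differed by -0.04 (exact permutation p = 0.743, adjusted 0.743), and both changed differently from TAP1, by 0.37 and 0.41 (adjusted p = 0.0445 from the exact permutation test). HLA-E, B2M, TAP2 probe 1 and TAPBP probe 1 were not distinguished from each other. Nor was TAP1 distinguished from TAP2 probe 1 or TAPBP probe 1. TAP2 probe 2, with a log2 fold change of -0.83, was in none of these pairs.

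Of the 9 genes, 7 lie in the MHC on chromosome 6, B2M on chromosome 15 and NLRC5 on chromosome 16. From HLA-F to TAPBP in the RefSeq order, 87 other genes had a tested probe, taking the brightest probe of each. Of these 22 were higher (25.3%), 6 lower (6.90%) and 59 not called, against 19.9% and 21.9% of all 11303 genes. Their median log2 fold change was 0.0562 and that of all genes -0.0252. HLA-H, a class I pseudogene near HLA-F, had a log2 fold change of 1.06 (limma adjusted p = 1.91e-09), and HCG4, a noncoding gene beside HLA-F, had 0.56 (limma adjusted p = 8.49e-06). HLA-G, which lies between HCG4 and HLA-H, had 0.43 and was not called (limma adjusted p = 0.108). HLA-H resembles the other HLA genes in sequence, so shared signal cannot be told apart. Among the class II genes near TAP1 and TAP2, HLA-DOA had 0.81 and HLA-DMB 0.69 (limma adjusted p = 3.39e-06 and 1.2e-06). The class II genes of the region ran from 0.13 for HLA-DOB to 0.91 for HLA-DPB2 (limma adjusted p = 0.576 and 0.00116). HLA-DOB was not called, nor was HLA-DPB1, with 0.14 (limma adjusted p = 0.384). HLA-H, HCG4, HLA-G and the class II genes named here were chosen after their values were seen.

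**Figure D3:**
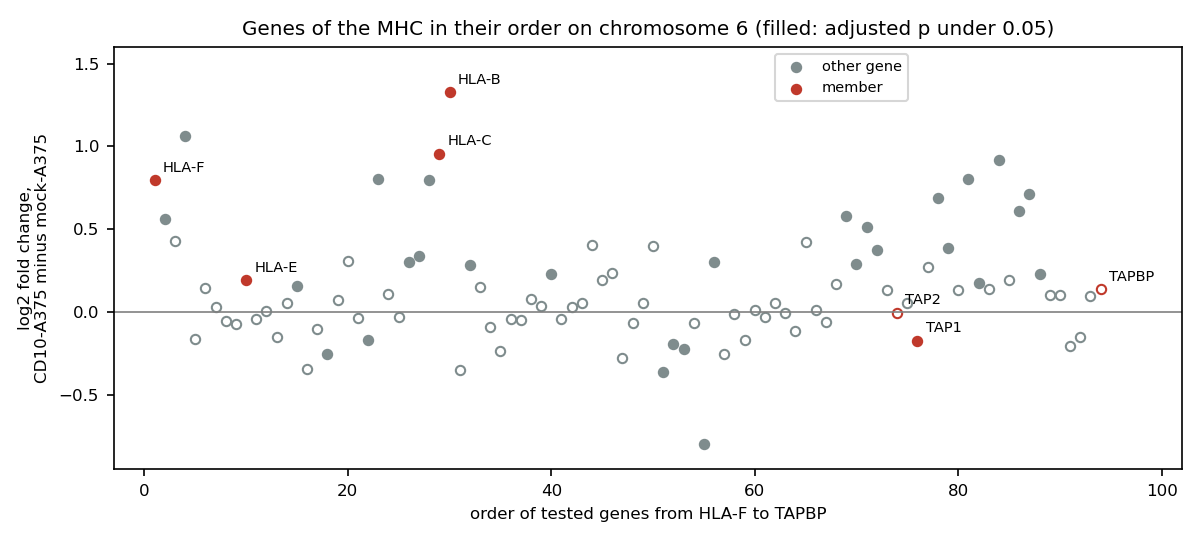
The vertical axis gives the log2 fold change of CD10-A375 over mock-A375 (n = 4 arrays per group) for each tested gene from HLA-F to TAPBP, in their order along chromosome 6 on the horizontal axis. Red points are members, filled points passed the test. HLA-B at 1.33 is the highest point, whereas TAP2 at its brightest probe and TAP1 lie at -0.0046 and -0.17.

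Among the other steps of peptide supply, few genes were higher. Of 5 tested peptide loading partners, 1 was higher and 4 were not called, and of 8 peptidases that trim or destroy peptides, none was higher and 3 were lower. GANAB, a subunit of the glucosidase that trims new glycoproteins for the chaperones calnexin and calreticulin, had a log2 fold change of 0.28 (limma adjusted p = 0.00441). The aminopeptidase gene LAP3 had -0.35, the tripeptidyl peptidase gene TPP2 -0.32 and the oligopeptidase gene THOP1 -0.26 (limma adjusted p = 5.17e-04, 0.0244 and 0.00994). ERAP1, which trims peptides in the endoplasmic reticulum, had 0.12 and its relative ERAP2 -0.38 (limma adjusted p = 0.545 and 0.0877). All genes were called in 41.8% of cases by their brightest probe, 19.9% higher and 21.9% lower, so neither list had a larger share of calls than that.

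Of 8 immunoproteasome and activator genes none was higher and 3 were lower, and of 13 tested core subunits of the constitutive proteasome none was higher and 2 were lower. The activator genes PSME3 and PSME2 had log2 fold changes of -0.37 and -0.37 and the immunoproteasome subunit gene PSMB10 had -0.26 (limma adjusted p = 2.2e-04, 2.79e-04 and 0.00577). PSMB5, the core subunit that PSMB8 replaces in the immunoproteasome, had -0.27, and PSMA4 had -0.16 (limma adjusted p = 0.00417 and 0.0297). PSMB8 and PSMB9, which lie next to TAP1 and TAP2, had 0.05 and 0.27 (limma adjusted p = 0.677 and 0.0677). The lists were called in 37.5% and 15.4% of their genes, both below the 41.8% of all genes, and their medians were -0.107 and -0.0424.

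Among 8 tested genes of the SXY enhanceosome, the complex that binds the X and Y boxes, 3 were higher and none lower. CIITA, the class II transactivator that can also act on class I promoters, had a log2 fold change of 1.25 with an SE of 0.08 (limma adjusted p = 1.3e-09). NFYA and NFYC, subunits of the factor that binds the Y box, had 0.41 and 0.20 (limma adjusted p = 0.0163 and 0.0432). RFX5, which binds the X1 box, had -0.02 (limma adjusted p = 0.846). The median of the list was 0.162, and 37.5% of its genes were called, no more than the 41.8% of all genes, of which 19.9% were higher.

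Interferons are the best known inducers of class I genes. Of 15 tested genes of interferon receptors, Janus kinases, STAT proteins, their inhibitors and interferon regulatory factors, 6 were higher and 1 lower (46.7% called). The receptor gene IFNAR2 had a log2 fold change of 0.64, the regulatory factor gene IRF7 0.60, STAT3 0.53 and the kinase gene JAK1 0.46 (limma adjusted p = 1.44e-05, 3.76e-04, 1.28e-05 and 0.00419). IRF1, which binds the interferon element of class I promoters, had -0.0086 (limma adjusted p = 0.946). The lower gene was IFNGR1, the ligand-binding chain of the interferon gamma receptor, with -0.44 (limma adjusted p = 1.62e-04). IFNGR2, the other chain of that receptor, was higher, with 0.40 (limma adjusted p = 8.68e-05). The median of the list was 0.161. Of 18 tested interferon-stimulated genes 4 were higher and 6 lower (55.6% called), with a median of -0.104. Of all genes 41.8% were called, 19.9% higher and 21.9% lower, and neither interferon list was tested against that share. They moved in both directions. The guanylate-binding protein gene GBP2 had 2.80, whereas the synthetase gene OAS2 had -1.88 and the membrane protein gene IFITM1 -1.22 (limma adjusted p = 1.8e-16, 6.47e-12 and 1.77e-08). IFI44, detected on the mock-A375 arrays alone, was lower in CD10-A375 by at least 3.85-fold (limma adjusted p = 4.04e-11).

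Of 10 genes of class I-like chains, which pair with B2M or share its partner's fold, 4 were tested. None was called higher and 2 (50%) were lower, beside 41.8% of all genes called and 21.9% lower, and 4 genes are too few to set against those shares. CD1D, which presents lipids to natural killer T cells, was detected on the mock-A375 arrays alone, and its signal in CD10-A375 was lower by at least 1.55-fold (limma adjusted p = 2.9e-07). For CD1D and IFI44 the bound was computed from the mock-A375 mean and, for each CD10-A375 array, the dimmest detected probe or the gene's own signal, whichever was brighter. PROCR, the endothelial protein C receptor gene, had log2 signals of 8.45 ± 0.11 (SD, n = 4) in CD10-A375 and 9.45 ± 0.19 (SD, n = 4) in mock-A375. MR1, which presents vitamin metabolites to T cells, had a log2 fold change of 0.29 (limma adjusted p = 0.0907, against 1.23e-07 for PROCR).

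**Figure D4:**
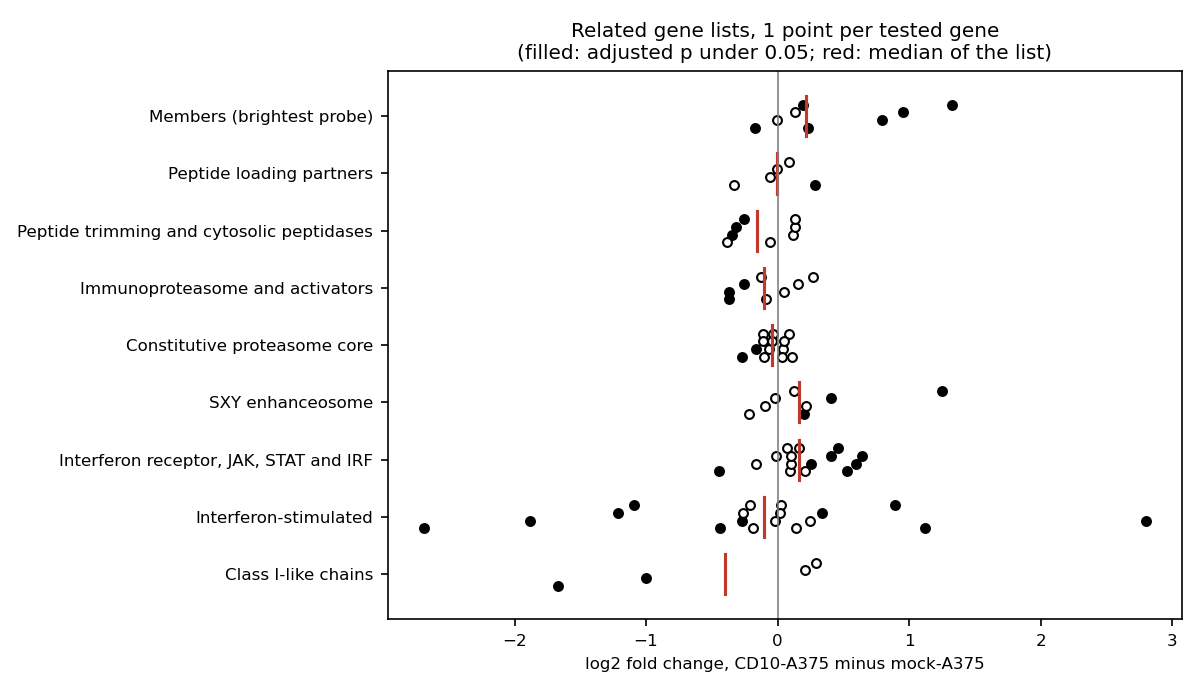
The horizontal axis gives the log2 fold change of CD10-A375 over mock-A375 for 1 probe per gene (n = 4 arrays per group), with the lists on the vertical axis. Filled points passed the test at an adjusted p under 0.05 and red lines are medians. Interferon-stimulated genes spread from -2.69 to 2.80, the fitted value of IFI44 at the low end being one for which only a bound holds, and the proteasome core stays within -0.27 and 0.11.

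Over the 8 arrays, the genes whose log2 signals were most like those of HLA-B were CD59 (Pearson r = 0.9975), LINC00997 (0.9960) and DLK2 (0.9956), each at its brightest probe. Their log2 fold changes were 1.43, 1.30 and 1.07. The 8 points fall into the 2 groups of 4 that differ in all of these genes, and 45 of the 11302 genes compared had r above 0.99, so the order among them is a description only.

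**Figure D5:**
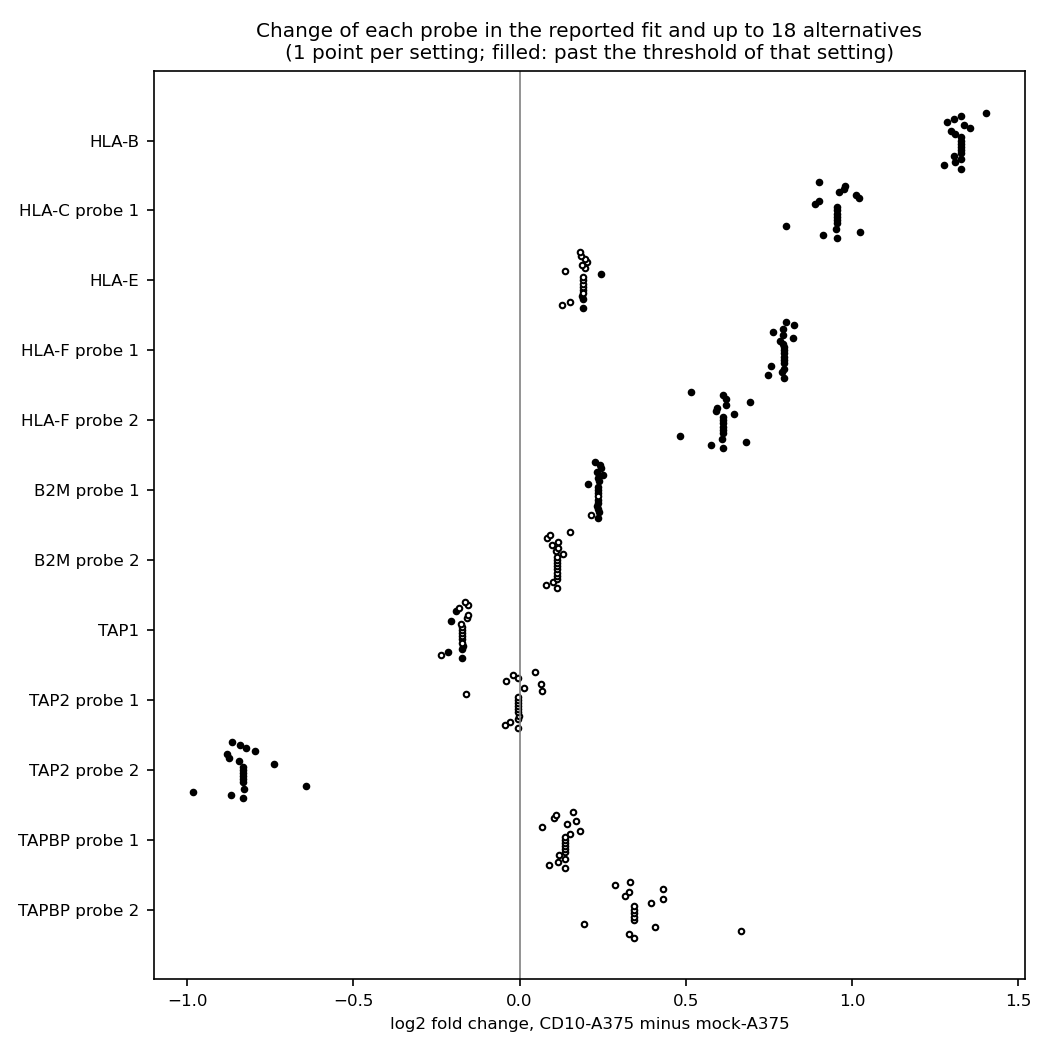
The horizontal axis gives the log2 fold change of CD10-A375 over mock-A375 and the vertical axis the 12 tested probes, with 1 point for the reported fit and for each of up to 18 alternatives. Filled points passed the threshold of that setting. HLA-B stayed between 1.28 and 1.40 and TAP2 probe 2 between -0.98 and -0.64, filled throughout, whereas HLA-E and TAP1 have mostly open points.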

How the data were processed

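Total RNA of 4 CD10-A375 and 4 mock-A375 samples was copied into biotinylated cRNA, which was hybridized to Illumina HumanHT-12 version 4 arrays. The authors read the arrays in GenomeStudio (version 1, per the submitters' processing notes). They deposited linear intensities with the background subtracted but with no normalization between arrays, and a detection p-value for every probe and array, its rank among negative controls. A second deposited table holds the intensity after average normalization by the authors, each array multiplied by 1 factor (0.883 to 1.04).

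Here normexp correction used the detection p-values, and quantile normalization and log2 transformation with an offset of 16 followed (limma version 3.58.1, R version 4.3.3). The offset shrinks the fold changes of dim probes. Testing covered the 19550 probes that were detected on 1 or more arrays at a detection p of up to 0.01, by limma (empirical Bayes with an intensity trend, two-sided, Benjamini-Hochberg over all of them), and 27772 were left out. Of all probes 30113 carry 1 gene symbol in the platform annotation, updated through RefSeq. Lists used the brightest tested probe of each gene, and the called genes with the largest change, up to 4 in each list, were named, besides PSMB8, PSMB9, RFX5 and IRF1. ERAP1, ERAP2, MR1, IFNGR1 and IFNGR2 were named after their values were seen. The members and lists were chosen with earlier results of these data known. SAM, the kind of test that the methods name, was written anew as an alternative. It was run on the values used here with adjusted p-values, and the P-value and fold limits of the methods were not applied. Its adjusted p cannot fall below 0.0286, because the real grouping is among the groupings pooled. Precision is limited by the number of arrays, and intensities give no depth.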

Additional observations from a re-analysis of the deposited data

How the results depend on the processing

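Of the 12 tested probes, HLA-B, HLA-C probe 1, both HLA-F probes and TAP2 probe 2 kept their direction and their call under all 18 alternatives, and no called probe turned its direction. In the reported fit 6 probes were higher and 2 lower. The count of lower probes was 1, without TAP1, with no normalization between arrays, no detection filter, SAM, no intensity trend, the replicate block and an adjusted p under 0.01. With 1 array left out in turn, 1 to 2 probes were lower and 5 to 6 higher, and 6393 to 6946 of all probes were called, against 7162. SAM called 2797 of all probes, 4 member probes higher and 16.5% of the related genes, against 39.2% by limma. With arrays left out the share of related genes ran from 32.9% to 41.8%. With the replicate number as a block, 6635 probes were called and the calls of HLA-E (adjusted p = 0.0636 from limma) and TAP1 (0.0856) were lost, with no other change among the 12. The titles number the arrays 1 to 4 in each group, and no text read here says whether same-numbered arrays belong together. Their deviations correlated at only -0.189 to 0.0315, so no pairing was seen. With 4 arrays per group these correlations cannot exclude it. The causes of the lost calls were not tested. Fold changes of TAPBP probe 2, near background, ran from 0.19 with an offset of 50 to 0.67 with average normalization.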
